A study of Mus musculus with 24 samples.

Results

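Kit+ CD45+ cells sorted from mouse embryos after exposure to an antibody against Dll4 were compared with the same cells after a control antibody, anti-human IgG. The libraries were taken by their titles: 4 anti-Dll4 and 4 IgG libraries of CD31+ Kit+ CD45+ cells, 8 of the 24 in the series. The other 16 libraries hold Kit+ CD45- cells and Kit- CD41+ CD45- cells, 4 per antibody each, and the series title concerns Dll4 in the recruitment of hemogenic cells into aortic clusters and in stem cell output. C57BL/6J embryos at stage E10.5 received the antibody by injection into the heart. Culture followed for 5 h (37 °C, 5% CO2) with the antibody at 5 µg/ml, interleukin-3 at 10 ng/ml and hydrocortisone at 10 µM. Controls therefore had the cytokine and the steroid too, and every value below is a difference between antibodies in their presence. Collagenase freed the cells for sorting, and the cDNA made from their polyadenylated RNA was amplified by long-distance PCR. The number of embryos behind a library is not stated, so p-values measure the spread between these libraries.

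Dll4 is a transmembrane ligand of the Notch receptors and is made by arterial endothelium. Ligand binding releases the intracellular part of Notch, which joins Rbpj on DNA and raises transcription of target genes such as Hes1 and Hey1. In the dorsal aorta, hemogenic endothelial cells give rise to clusters of blood cells, which keep CD31 and Kit and gain the pan-leukocyte marker CD45 (encoded by Ptprc) as they mature.

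The transcripts of the gate were present in all 8 libraries. Kit, the stem cell factor receptor, stood at 63.0, 62.8, 51.1 and 79.8 CPM in the anti-Dll4 libraries and at 76.1, 46.9, 74.6 and 45.4 CPM in the IgG libraries, where CPM are counts scaled to library size with TMM factors and values are given in the order of replicates 1 to 4. Ptprc stood at 59.2, 108, 66.0 and 83.3 CPM under anti-Dll4 and at 55.1, 104, 53.002 and 117 CPM under IgG. The groups overlapped for both markers, and so they did for Pecam1, which encodes CD31 (128 to 267 CPM under anti-Dll4 and 174 to 295 CPM under IgG).

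The libraries held 8973458 to 11115548 counts and 18721 to 21093 genes with at least 1 count. IgG replicate 1 had the fewest genes, lay at -70.4 on the first principal component (32.5% of the variance) while the other 7 lay between -9.06 and 26.9, and was the lowest of the 8 for all 20 macrophage genes listed, as for 24.4% of all genes tested. Anti-Dll4 replicate 1 differed from the rest in its sex-linked transcripts, with Ddx3y at 116 CPM and Xist at 0.0931 CPM, whereas Xist stood between 135 and 205 CPM in the other 7. Where a value without IgG replicate 1 is given, it stands beside the value with it.

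A single gene, F2rl2, passed the threshold between anti-Dll4 and IgG, and it was higher under anti-Dll4. F2rl2 encodes the protease-activated receptor Par3, a cofactor for thrombin signalling on mouse platelets. It stood at 17.0, 31.8, 35.3 and 51.7 CPM in the anti-Dll4 libraries and at 1.397, 7.11, 8.22 and 7.35 CPM in the IgG libraries. Every anti-Dll4 library lay above every IgG library. The log2 fold change was 2.51 (SE 0.37), with an adjusted p = 0.0093 by edgeR's quasi-likelihood test fitted to all 24 libraries. It was the only one of 15618 genes tested that was called (0.0064%), and no gene was called lower. An unadjusted p under 0.05 was found for 453 genes (2.9%), 268 higher (1.72%) and 185 lower (1.18%). That share is smaller than the level of 0.05 itself. The groups did not overlap for 281 genes (1.8%). In sorted bulk cells, more cells of a lineage and more RNA per cell cannot be told apart.

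The log2 fold change of F2rl2 was 2.17 without IgG replicate 1, its lowest library, and it was again the only gene called (edgeR, adjusted p = 0.00644, 0.00624% of 16017 genes). It was called without anti-Dll4 replicate 1 too (2.73, adjusted p = 0.00169). It was not called without anti-Dll4 replicate 4, its highest library (2.23, adjusted p = 0.0675), nor with all genes of at least 1 count tested (2.51, adjusted p = 0.0703). Fitted on the 8 libraries alone, with the spread estimated from them only, its log2 fold change was 2.52 and its adjusted p = 1. DESeq2 on the 24 libraries called 14 genes, F2rl2 among them (adjusted p = 1.63e-08). Of the rest, Cd226, Chrna1, Fam46c, Gnaz, Gp6, Hbq1b, Hemgn, Ly6g6f, Reln, Rtn2 and Serpinb2 were higher under anti-Dll4, and Cacna2d3 and Gdf10 lower.

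F2rl2 lies on chromosome 13, from 95696853 to 95702739 on the plus strand (mm10), inside the span of Iqgap2 on the opposite strand. Whether reads were counted by strand is not stated, so reads of both genes may be mixed. Iqgap2, a scaffold protein of the cytoskeleton, averaged 30.3 ± 4.50 CPM under anti-Dll4 and 31.1 ± 7.05 CPM under IgG (SD, n = 4 each), a log2 fold change of -0.04 with overlapping groups.

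The letters before the start of F2rl2 and of Gp6 are shown because these are the genes whose response differed from that of Kit+ CD45- cells, as given further on. They come from RefSeq's GRCm38.p6 promoter table, with F2rl2 cut where the authors' gene model begins. AGATAA, a core that GATA factors bind, is in capitals and was searched on both strands.
F2rl2, chr13:95696670-95696852, plus strand: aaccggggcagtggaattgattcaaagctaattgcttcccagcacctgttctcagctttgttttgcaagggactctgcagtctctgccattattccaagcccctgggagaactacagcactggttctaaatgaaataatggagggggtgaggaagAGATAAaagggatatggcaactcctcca
Gp6, chr7:4397745-4397994, minus strand: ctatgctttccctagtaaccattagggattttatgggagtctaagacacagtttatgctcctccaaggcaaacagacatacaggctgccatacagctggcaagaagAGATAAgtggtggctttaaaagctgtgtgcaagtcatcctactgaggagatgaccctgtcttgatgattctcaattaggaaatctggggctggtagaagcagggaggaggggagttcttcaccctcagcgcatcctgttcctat
Of the 23 platelet-lineage genes listed, 18 had an entry in the table, and 3 of these (16.7%) held the motif in the 250 bases before the start: F2rl2, Gp5 and Gp6. Among all 27025 genes of the table the share was 11.4%. A match is a description of the letters only.

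Most other genes of the megakaryocyte and platelet list had higher means under anti-Dll4 without passing the threshold. Of 23 members tested, 21 had a positive log2 fold change (49.7% of all genes tested did). At an unadjusted p under 0.05 by edgeR, 12 were higher (1.72% of all genes tested were) and none was lower. F2rl2 was the only member called by edgeR. DESeq2 called Gp6 as well (adjusted p = 0.0231). The median log2 fold change of the list was 0.96, against 0 over all genes tested. In 3 members, F2rl2, Gp1bb and Itgb3, every anti-Dll4 library was above every IgG library, as it was for 150 of all genes tested (0.96%). The mean level of the list, as log2(CPM + 1) over its members, was 3.94, 4.70, 4.80 and 4.27 in the anti-Dll4 libraries and 2.92, 3.78, 3.60 and 3.82 in the IgG libraries, so the groups did not overlap. The summed CPM of the list, which its most abundant members dominate, did overlap, at 822 to 1303 under anti-Dll4 and 486 to 883 under IgG. Without IgG replicate 1 the median was 0.76, with 22 of 23 members positive and 4 without overlap (1.7% of all genes tested lay above in that way). Then 9 members had an unadjusted p under 0.05 by edgeR, as did 2.53% of 16017 genes tested. That library was the lowest of the 8 for 11 of the 23 members, as for 24.4% of all genes tested.

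**Figure D1:**
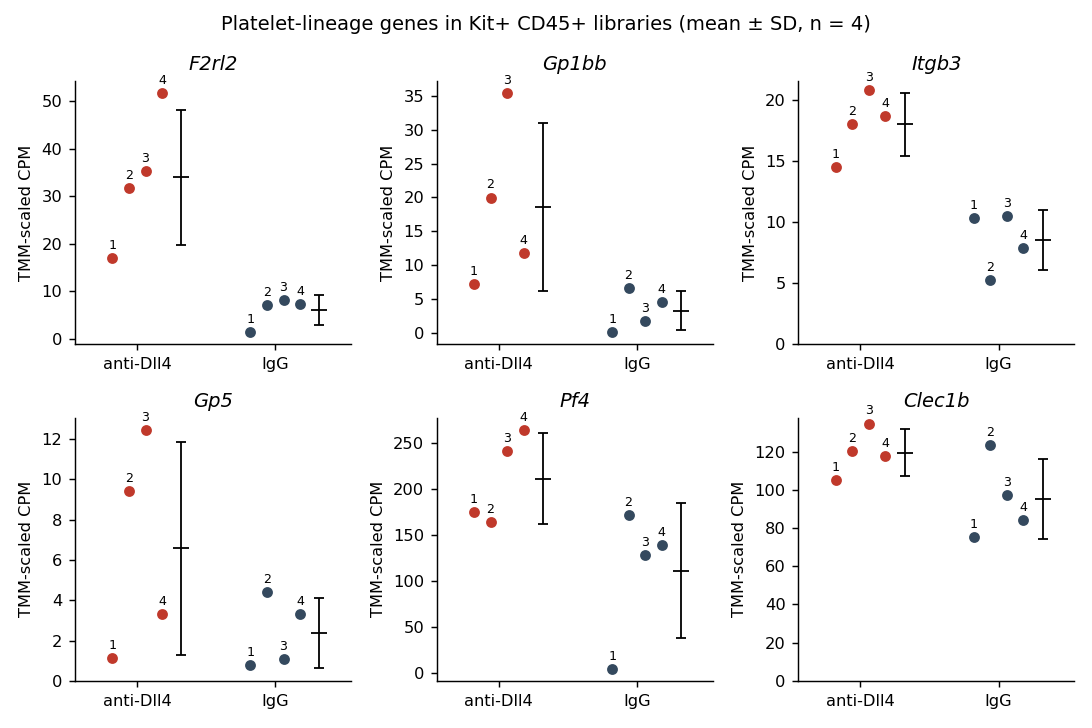
TMM-scaled CPM (y axis) of 6 platelet-lineage genes in each Kit+ CD45+ library, numbered by replicate, with the mean and SD of 4 libraries beside each group. All 4 anti-Dll4 points lie above all 4 IgG points for F2rl2, Gp1bb and Itgb3, while the groups overlap for Gp5, Pf4 and Clec1b.

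Among platelet surface receptors, Gp1bb, a subunit of the receptor for von Willebrand factor, stood at 7.27, 20.0, 35.4 and 11.7 CPM under anti-Dll4 and at 0.0665, 6.58, 1.75 and 4.48 CPM under IgG. Its log2 fold change was 2.55 (SE 0.62, edgeR adjusted p = 0.676). Gp1bb shares bases with Sept5 on the same strand, and reads there may be split between them. Sept5 averaged 0.984 ± 0.427 CPM under anti-Dll4 and 1.06 ± 0.659 CPM under IgG (SD, n = 4 each). The partners of Gp1bb in the complex overlapped between groups, with log2 fold changes of 1.86 for Gp1ba, 1.48 for Gp5 and 0.96 for Gp9. That of Gp1ba was 0.67 without anti-Dll4 replicate 3, its highest library.

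Itgb3, the beta chain of the fibrinogen receptor, stood at 14.5, 18.05, 20.8 and 18.7 CPM under anti-Dll4 and at 10.4, 5.30, 10.51 and 7.89 CPM under IgG (log2 fold change 1.08, SE 0.32, edgeR adjusted p = 0.947). The alpha chain gene Itga2b, which encodes the CD41 of the sort, stood at 9.59 to 43.6 CPM under anti-Dll4 and at 11.04 to 17.4 CPM under IgG, and the groups overlapped. The collagen receptor gene Gp6 had few reads, with 3, 37, 14 and 23 counts in the anti-Dll4 libraries and 0, 0, 4 and 0 counts in the IgG libraries. Clec1b, the receptor for podoplanin, had a log2 fold change of 0.33 with overlapping groups.

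Among genes of platelet granules and cytoskeleton, the chemokine gene Pf4 stood at 174, 164, 241 and 264 CPM under anti-Dll4 and at 4.46, 172, 128 and 139 CPM under IgG. IgG replicate 1 was far below the rest, and the log2 fold change was 0.93 with it and 0.52 without it, not past the threshold either way. Thbs1, an adhesive granule protein, had a log2 fold change of 0.97 (0.60 without that library). Rab27b, which acts in granule secretion, had one of 1.15, and without IgG replicate 1 every anti-Dll4 library lay above every IgG library. Tubb1, the tubulin of the platelet marginal band, stood at 0.373 to 7.91 CPM under anti-Dll4 and had counts in 1 IgG library only. Vwf and Mmrn1, which endothelium also makes, had log2 fold changes of -0.04 and -0.07, and the sign of each changed under 2 of 14 alternatives.

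The platelet genes were also read against the other sorted populations, which share no libraries with the Kit+ CD45+ comparison. The effect of anti-Dll4 on F2rl2 differed from that in Kit+ CD45- cells by 3.45 on the log2 scale (SE 0.50, edgeR adjusted p = 0.00636), and the effect on Gp6 differed by 6.65 (SE 1.08, adjusted p = 0.0209). These were the only 2 of 15618 genes called for this difference (0.0128%). In Kit+ CD45- cells F2rl2 averaged 150 ± 21.9 CPM under anti-Dll4 and 290 ± 104 CPM under IgG (SD, n = 4 each), and Gp6 averaged 2.91 ± 1.26 CPM under anti-Dll4 and 17.0 ± 11.1 CPM under IgG. Within Kit+ CD45- cells edgeR called no gene, with 1733 at an unadjusted p under 0.05 (11.1%). The difference was positive for all 23 platelet genes, with a median of 2.03 and an unadjusted p under 0.05 for 17, whereas 924 of all genes tested passed that level (5.92%), 660 of them positive (4.23%). Over all genes the difference was positive for 53.5%, with a median of 0.04. It was positive for most members of other lists too, with 28 of 29 pan-endothelial genes (median 0.75), 10 of 10 venous genes (0.92), 26 of 28 stem cell and progenitor genes (0.52) and 25 of 28 adhesion and migration genes (0.58). In Kit+ CD45- cells 28 of 29 pan-endothelial genes were negative, with a median of -0.78. Globins took 22.1% to 49.3% of counts under anti-Dll4 and 16.9% to 33.7% under IgG in Kit+ CD45- libraries, and their part in the result was not tested. The fitted value for Gp6 depends on its few counts under IgG in Kit+ CD45+ cells, and Gp6 was not called without anti-Dll4 replicate 2 or 4, or without IgG replicate 1 or 4. F2rl2 was called without each of the 8 libraries in turn. Neither gene was called with no filter, nor with only the 16 libraries of both populations. Whether libraries of different populations with the same antibody and number came from the same embryos is not stated. With a term for each such set, F2rl2 was called (3.44, adjusted p = 0.0225), while Gp6 (6.48, adjusted p = 0.129) was not.

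**Figure D2:**
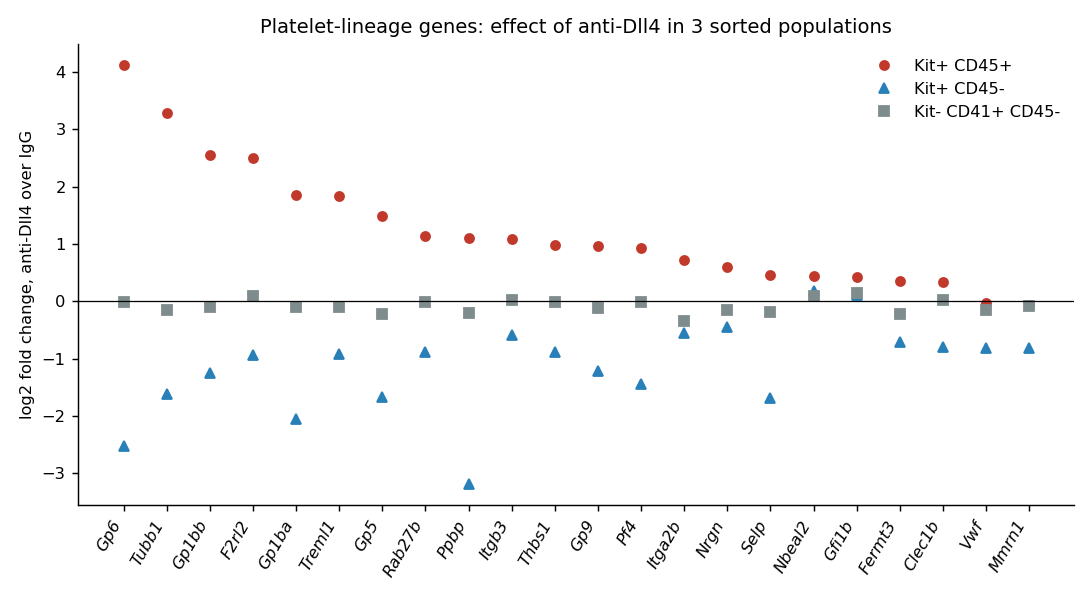
Log2 fold change of anti-Dll4 over IgG (y axis) for 22 platelet-lineage genes (x axis) in 3 sorted populations, from the fit to 24 libraries. Kit+ CD45+ points are above 0 for 20 genes, Kit+ CD45- points are below 0 for 20 genes, and Kit- CD41+ CD45- points stay near 0 with a median of -0.09.

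All 23 platelet genes had their highest mean under IgG in Kit- CD41+ CD45- cells. F2rl2 averaged 3193 ± 412 CPM under anti-Dll4 and 2985 ± 245 CPM under IgG in those cells (SD, n = 4 each). The difference of 27.9 CPM between antibodies in Kit+ CD45+ cells was 0.935% of that IgG level. The same ratio was 1.07% for Gp1bb, 0.904% for Gp6, 0.741% for Pf4, 1.03% for Thbs1 and 2.33% for Clec1b, with a median of 1.31% over the list and a range from -1.54% for Mmrn1 to 30.8% for the selectin Selp. Whether cells or RNA of that population in the Kit+ CD45+ sort had a part in the result was not tested.

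Within Kit- CD41+ CD45- cells edgeR called no gene, with 435 at an unadjusted p under 0.05 (2.79%). Against the effect in those cells, that in Kit+ CD45+ cells was more positive for all 23 platelet genes (53.3% of all genes tested), with a median difference of 1.05 and 8 at an unadjusted p under 0.05, against 288 of all genes tested (1.84%). The 1 gene called for a difference of the effect (0.0064%, with 499 or 3.2% at an unadjusted p under 0.05) was not a platelet gene. Cacna2d3, a calcium channel subunit, had 0 counts in all 4 anti-Dll4 libraries of Kit+ CD45+ cells and 14, 2, 6 and 3 counts in the IgG libraries, at least 1.84-fold lower under anti-Dll4 against a floor of 3 counts per library, or 1.19-fold without IgG replicate 1. In Kit- CD41+ CD45- cells it averaged 4.09 ± 0.925 CPM under anti-Dll4 and 1.10 ± 0.608 CPM under IgG (SD, n = 4 each). The fitted difference of -7.18 (edgeR adjusted p = 0.0314) rests on counts near that floor. It was not called without any 1 of the 4 anti-Dll4 libraries, nor without IgG replicate 1 or IgG replicate 3 of Kit+ CD45+ cells, nor with a term for each set of the same antibody and number (adjusted p = 0.334).

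Values of macrophage genes depended on which library was left out, in both antibody groups. None of the 20 tested members was called with or without IgG replicate 1. With it, 18 had a negative log2 fold change (49.9% of all genes tested did) and the median was -0.26. Without it, all 20 were negative and the median was -0.64, and 2 members had an unadjusted p under 0.05, when 405 of 16017 genes tested did (2.53%). That library was chosen for its low myeloid transcripts and was lowest for all 20 genes, so leaving it out had to lower each of these values. The median was -0.01 without IgG replicate 2 and 0.01 without IgG replicate 4, with 10 members positive and 10 negative each, and -0.04 with the replicate block, with 8 positive and 12 negative. It was -0.48 without anti-Dll4 replicate 2, with all 20 negative. Without anti-Dll4 replicate 4 it was -0.09, with 6 positive and 14 negative. The level of the list was 5.71, 6.06, 5.11 and 4.95 in the anti-Dll4 libraries and 2.99, 6.27, 5.69 and 6.33 in the IgG libraries, as mean log2(CPM + 1). IgG replicate 1 lay below all others, and anti-Dll4 replicates 3 and 4 below the other 3 IgG libraries.

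C1qb, a chain of the complement component C1q, stood at 505, 578, 306 and 253 CPM under anti-Dll4 and at 31.7, 701, 511 and 736 CPM under IgG. The log2 fold change was -0.27 with all libraries and -0.66 without IgG replicate 1. Adgre1, which encodes the macrophage marker F4/80, stood at 26.8, 49.96, 18.4 and 15.996 CPM under anti-Dll4 and at 0.200, 54.0, 27.8 and 49.7 CPM under IgG. The mannose receptor gene Mrc1 stood at 99.8, 67.6, 57.2 and 60.2 CPM under anti-Dll4 and at 1.93, 203, 83.9 and 115 CPM under IgG. For both, the lowest and the highest library lay in the IgG group. The groups overlapped with IgG replicate 1 and without it, as for all 20 macrophage genes tested. Cd14, the lipopolysaccharide co-receptor, had a log2 fold change of 0.36 that became -0.04 without IgG replicate 1.

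**Figure D3:**
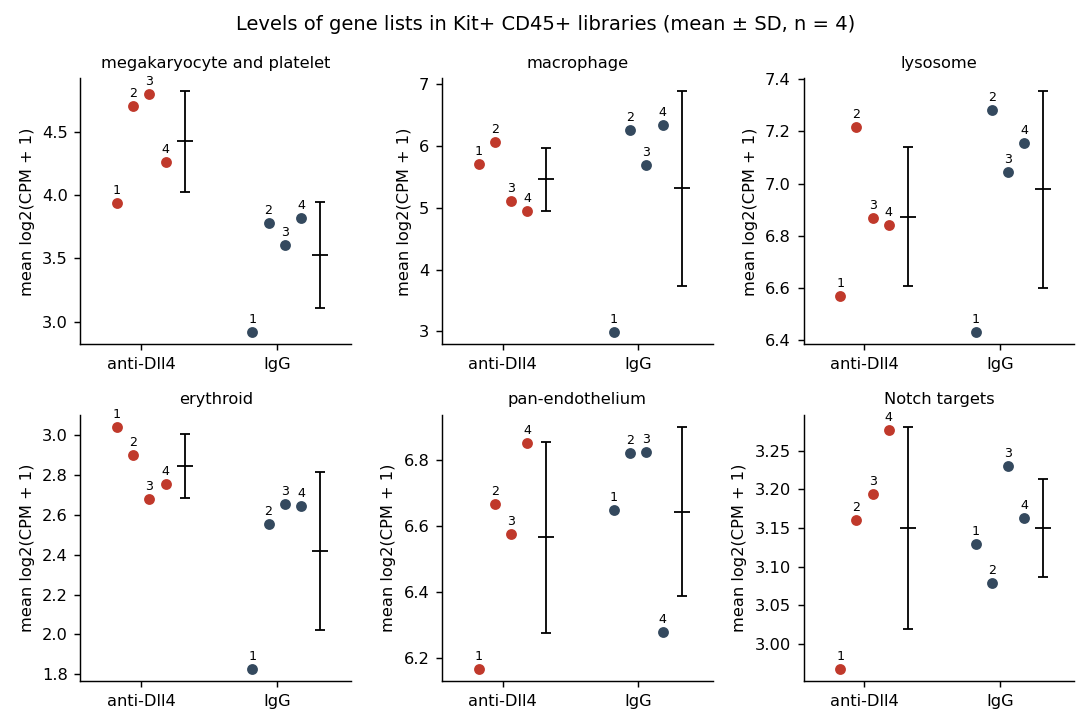
Mean log2(CPM + 1) of 6 gene lists (y axis) in each Kit+ CD45+ library, numbered by replicate, with the mean and SD of 4 libraries beside each group. The platelet list and, by a narrow gap, the erythroid list do not overlap between antibodies. IgG replicate 1 stands at 2.99 in the macrophage list where the other 7 libraries stand between 4.95 and 6.33.

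The lysosome and chemokine lists, which hold genes that macrophages express, moved without IgG replicate 1 and without other libraries. The lysosome list had a median of -0.12 with 18 of 23 members negative, and -0.24 with 22 of 23 negative without IgG replicate 1. It was -0.25 without anti-Dll4 replicate 2 and -0.03 without anti-Dll4 replicate 1. Ctsb, a lysosomal protease, stood at 946 to 2110 CPM under anti-Dll4 and at 355 to 2690 CPM under IgG. Chemokines and their receptors had a median of 0.09 that turned to -0.30 without IgG replicate 1. It was -0.11 without anti-Dll4 replicate 1, -0.13 without anti-Dll4 replicate 2 and 0.37 without IgG replicate 2. Granulocyte and monocyte progenitor genes were split, 7 positive and 8 negative of 15. Their median was -0.01 with IgG replicate 1 and without it. Their myeloperoxidase gene Mpo stood at 262, 339, 208 and 129 CPM under anti-Dll4 and at 159, 139, 209 and 452 CPM under IgG. Ms4a3, a marker of such progenitors, was led by anti-Dll4 replicate 1, with 28.1 CPM there and 0.912 to 3.56 CPM in the other 3 anti-Dll4 libraries.

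**Figure D4:**
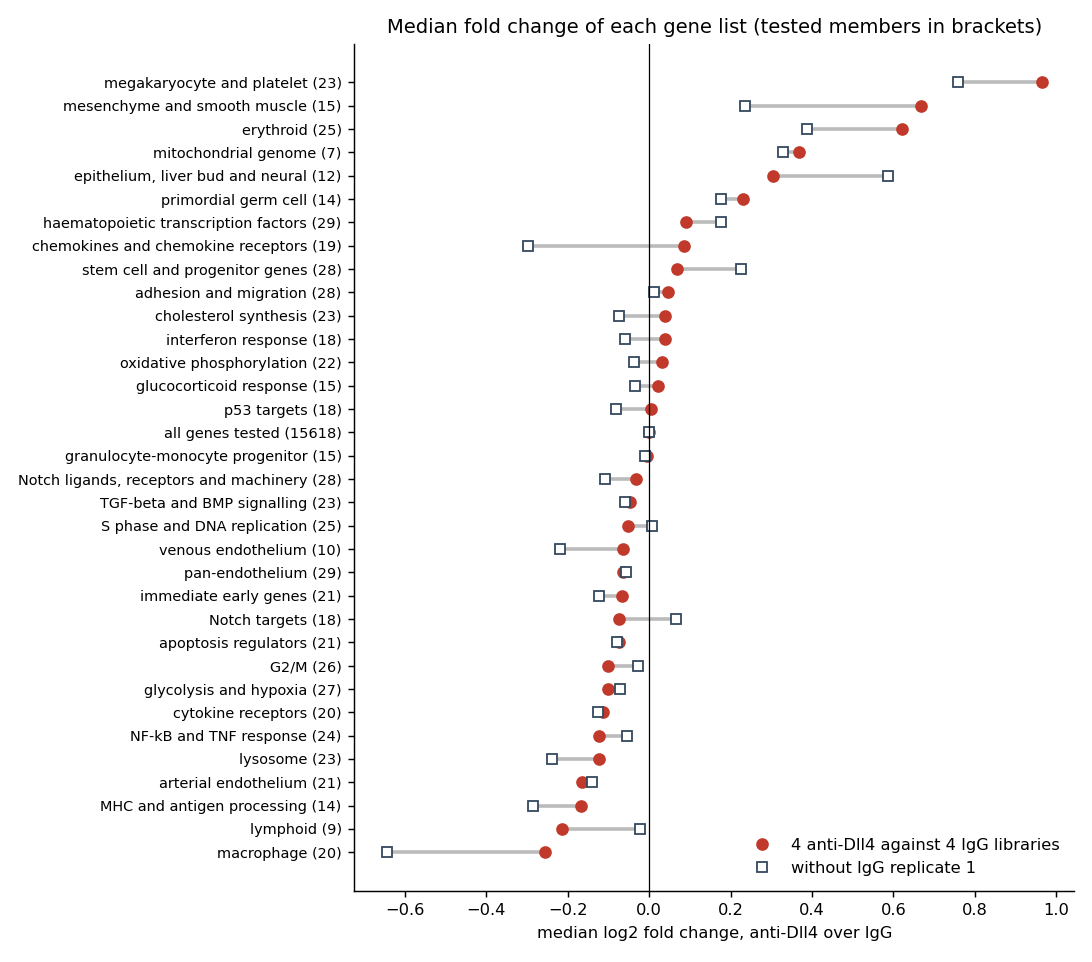
Median log2 fold change of anti-Dll4 over IgG (x axis) for each list with at least 5 tested members (y axis), with all 8 Kit+ CD45+ libraries (filled circles) and without IgG replicate 1 (open squares). The platelet list is highest in the first case at 0.96 and stays above the others at 0.76 in the second, while macrophage genes lie lowest at -0.26 and -0.64.

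No Notch gene was called. Among Notch targets, 8 of 18 tested members were positive and 10 negative, with a median log2 fold change of -0.07, or 0.07 without IgG replicate 1. At an unadjusted p under 0.05, 2 were higher (Hes5 and Myc) and 1 was lower (Hes1), when 1.72% of all genes tested were higher and 1.18% lower. Without IgG replicate 1 no Notch target passed that level. Hes1, a repressor and direct Notch target, had the smallest p of the list with all libraries, unadjusted p = 0.0195 by edgeR. It stood at 43.8, 51.4, 46.0 and 55.1 CPM in the anti-Dll4 libraries and at 98.4, 62.7, 90.6 and 74.1 CPM in the IgG libraries. Every anti-Dll4 library lay below every IgG library, as for 131 of all genes tested (0.839%). The log2 fold change was -0.73 (SE 0.29, edgeR adjusted p = 1), and -0.63 without IgG replicate 1. In the other populations Hes1 had log2 fold changes of -1.13 and -1.31, in Kit+ CD45- and Kit- CD41+ CD45- cells, and neither was called. The difference of the effect on Hes1 between Kit+ CD45+ and Kit+ CD45- cells was 0.40 (SE 0.41, adjusted p = 0.945).

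Hey1, a related repressor, stood at 21.9, 25.6, 38.7 and 51.2 CPM under anti-Dll4 and at 29.2, 64.7, 65.1 and 59.2 CPM under IgG. Without IgG replicate 1 every anti-Dll4 value was below every IgG value, as for 2.14% of all genes tested, at a log2 fold change of -0.87. Nrarp, a feedback inhibitor of Notch, stood at 12.1 to 48.8 CPM under anti-Dll4 and at 33.1 to 40.2 CPM under IgG. An antisense transcript covers most of Nrarp, so its reads may be mixed too. Myc, a Notch target in T cells, stood at 171, 208, 549 and 424 CPM under anti-Dll4 and at 213, 237, 219 and 253 CPM under IgG, so replicates 3 and 4 under anti-Dll4 were high and the other 2 were not (log2 fold change 0.55, unadjusted p = 0.0465 and adjusted p = 1 by edgeR). Hes5, another repressor of this family, had 21, 4, 0 and 19 counts under anti-Dll4 and 0, 1, 1 and 0 counts under IgG. Its fitted log2 fold change of 4.18 rests on few counts (unadjusted p = 0.0204 and adjusted p = 1 by edgeR).

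Mecom, a transcription factor of stem cells and of arterial endothelium, stood at 12.8, 11.5, 9.46 and 14.9 CPM under anti-Dll4 and at 19.5, 20.1, 18.5 and 18.5 CPM under IgG, without overlap (log2 fold change -0.65, SE 0.38, edgeR adjusted p = 1). Among ligands, receptors and the machinery that processes them, 13 of 28 members were positive and 15 negative, none with an unadjusted p under 0.05. Dll4 itself stood at 4.38, 12.1, 14.7 and 11.3 CPM under anti-Dll4 and at 16.3, 15.3, 21.6 and 8.25 CPM under IgG, with overlap. The log2 fold change of Notch1 was 0.10 and that of Notch4 was 0.16, and the sign of each changed under 1 of 14 alternatives. TGGGAA, the core that Rbpj binds, was found on either strand in the 250 bases before the start in 5 of the 14 Notch targets with a promoter entry (35.7%), and in 24.1% of all genes of the table.

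**Figure D5:**
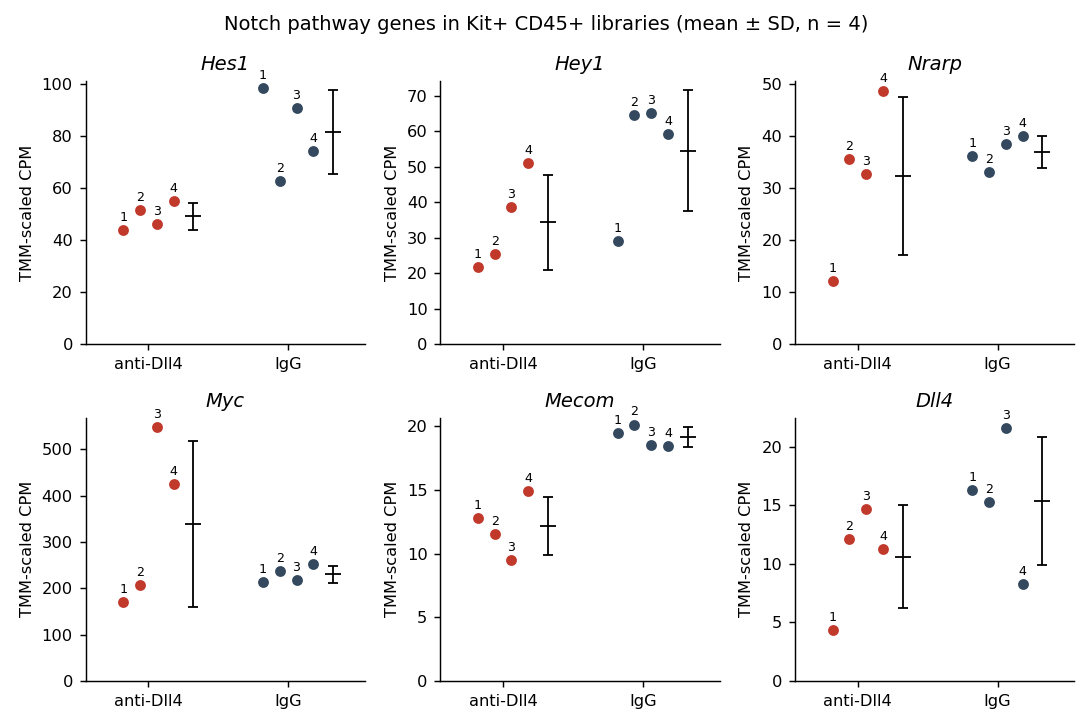
TMM-scaled CPM (y axis) of 6 genes, of the Notch pathway except for Mecom, in each Kit+ CD45+ library. Points are numbered by replicate, with the mean and SD of 4 libraries beside each group. Anti-Dll4 points lie below all IgG points for Hes1 and Mecom, and the groups overlap for Hey1, Nrarp, Myc and Dll4.

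The 10 genes with the smallest p among those higher under anti-Dll4 included, besides F2rl2, Slc14a1, Gp1bb, Daam1, Chsy1, Tmem40, F10, Hba-a1 and Nsd2, and F2rl2 alone was past the threshold. Of the 10, 8 had their highest IgG mean in Kit- CD41+ CD45- cells, as did 2 of the 10 lower genes named below. The share over all genes was not counted. Chsy1, which makes chondroitin chains, stood at 26.9, 14.5, 15.6 and 19.7 CPM under anti-Dll4 and at 10.2, 6.74, 13.8 and 8.07 CPM under IgG. Nsd2, a methyltransferase for lysine 36 of histone H3, stood at 42.3 to 52.8 CPM under anti-Dll4 and 29.0 to 37.9 CPM under IgG (log2 fold change 0.54, SE 0.15, edgeR adjusted p = 0.915). Of these 10 higher genes, F2rl2, Gp1bb, Chsy1 and Nsd2 had no overlap between groups, and 0.96% of all genes tested lay above in that way. The 10 were picked by p on the same libraries, which favours such separation. Hba-a1 shares near-identical sequence with Hba-a2, so its value is uncertain.

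The 10 with the smallest p among those lower were B4galt5, Slc7a5, Taz, Snx27, Sh3bp5l, Brms1l, Rarres2, Nsun5, Coq10a and Nfxl1, again none past the threshold. B4galt5, a galactosyltransferase of glycolipid synthesis, stood at 8.48, 7.82, 6.71 and 8.91 CPM under anti-Dll4 and at 16.6, 14.4, 11.5 and 19.6 CPM under IgG (log2 fold change -0.96, SE 0.27, edgeR adjusted p = 0.915). Slc7a5, a carrier of large neutral amino acids, stood at 11.5, 17.9, 8.34 and 12.4 CPM under anti-Dll4 and at 18.5, 23.6, 28.9 and 21.1 CPM under IgG. All anti-Dll4 values were below all IgG values for both, as for 0.839% of all genes tested. Taz, here the mitochondrial cardiolipin enzyme tafazzin on chromosome X, had a log2 fold change of -0.50 without overlap.

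Of 25 erythroid genes tested, 19 were positive and 5 negative, with a median log2 fold change of 0.62, or 0.39 without IgG replicate 1, and none called. At an unadjusted p under 0.05 by edgeR, 5 were higher and 1 was lower, when 1.72% of all genes tested were higher and 1.18% lower. IgG replicate 1 was the lowest of the 8 libraries for 14 of the 25, as for 24.4% of all genes tested. This list's median was 0.66 in the Kit+ CD45- population and 0.74 in the Kit- CD41+ CD45- one. Its level in Kit+ CD45+ libraries was 2.676 to 3.038 under anti-Dll4 and 1.828 to 2.654 under IgG, as mean log2(CPM + 1). The groups did not overlap, by a narrow gap. The embryonic globin gene Hbb-y had a negative value, -1.16, or -0.64 without IgG replicate 1, at 12.9, 56.9, 14.97 and 22.0 CPM under anti-Dll4 and at 115, 34.0, 55.3 and 35.7 CPM under IgG. Globins made up 0.0148 ± 0.00604% of counts under anti-Dll4 and 0.0150 ± 0.00610% under IgG (SD, n = 4 each). Transcripts of the mitochondrial genome made up 0.901 ± 0.150% of counts under anti-Dll4 and 0.724 ± 0.0783% under IgG (SD, n = 4 each). These shares did not overlap between groups (exact permutation test, two-sided, p = 0.0286, the smallest that 4 against 4 allows, and 0.143 adjusted over 5 library measures). The gap was narrow, with anti-Dll4 replicate 4 at 0.7891% and IgG replicate 2 at 0.78798%. All 7 mitochondrial genes tested were positive, with a median of 0.37, or 0.21 without anti-Dll4 replicate 1, and none was called. In 1 of the 7 every anti-Dll4 library was above every IgG library, as for 0.96% of all genes tested. At an unadjusted p under 0.05 by edgeR, 4 of the 7 were higher, as were 1.72% of all genes tested. Without IgG replicate 1, 2 of the 7 passed that level, as did 2.53% of all genes tested then. The level of the list overlapped, at 7.824 to 8.315 under anti-Dll4 and 7.496 to 7.871 under IgG as mean log2(CPM + 1).

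Haematopoietic transcription factors were positive in 19 and negative in 10 of 29, with a median of 0.09, or 0.18 without IgG replicate 1. The median turned to -0.01 without anti-Dll4 replicate 2 and to -0.04 without IgG replicate 2. Runx1, required for blood emergence, stood at 95.8, 98.3, 113 and 111 CPM under anti-Dll4 and at 116, 54.5, 84.0 and 96.6 CPM under IgG. Gata1, a factor of red cells and megakaryocytes, stood at 22.3, 41.1, 35.7 and 17.7 CPM under anti-Dll4 and at 0, 24.4, 16.1 and 19.1 CPM under IgG, and the myeloid factor gene Spi1 at 290 to 310 CPM under anti-Dll4 and 244 to 361 CPM under IgG. Arterial genes had 8 positive and 13 negative members of 21 and a median of -0.16. Pan-endothelial genes had 11 positive and 18 negative members of 29 and a median of -0.06. G2/M genes had 4 positive and 22 negative of 26 at a median of -0.10, or -0.03 without IgG replicate 1. Mesenchyme and smooth muscle genes had a median of 0.67 that became 0.23 without IgG replicate 1. It ran from 0.15 without anti-Dll4 replicate 2 to 1.17 without IgG replicate 2. Filtered and fitted on the 8 libraries alone, the median was 0.24, with 5 members positive and 5 negative. Of this list Acta2, smooth muscle actin, stood at 20.4 to 58.5 CPM under anti-Dll4 and 5.37 to 24.1 CPM under IgG. Lymphoid genes summed to 149 to 181 CPM under anti-Dll4 and 158 to 186 CPM under IgG. Epithelial, liver bud and neural genes summed to 59.2 to 106 CPM under anti-Dll4 and 40.7 to 97.5 CPM under IgG, and mast cell and basophil genes to 7.02 to 53.5 CPM under anti-Dll4 and 6.52 to 73.0 CPM under IgG. The groups overlapped in each, and no member of these lists was called.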

How the data were processed

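RNA-seq reads per gene were taken from the deposited count table, which holds raw counts for 29716 genes in 24 libraries. The log2 values deposited by the authors, log2 of count over size factor plus 1, were used only for gene names and positions and as a check of the counts (largest deviation 5.3e-14). That table has 1 column that matches none of the samples, and it was left aside. The submitters' processing notes name STAR, HTSeq, DESeq2, FastQC and CASAVA 1.4, and build mm10. The annotation release and the strand setting were not given in the sources used here. Gene identifiers with their version were found in GENCODE M21 for 26817 genes, all at the same position.

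Counts were fitted with edgeR 4.0.16 in R 4.3.3 (TMM, filterByExpr by group, robust quasi-likelihood), with 1 coefficient per group over all 24 libraries, 18 residual degrees of freedom and a biological coefficient of variation of 0.343. P-values were adjusted by Benjamini-Hochberg over 15618 genes within each comparison, at a threshold of 0.05. Amplified reads carry no molecular identifiers, so floors (3 counts per library) cover counting error only. No pair of replicates agreed within counting noise. Alternatives were other scalings, no filter, fewer libraries, DESeq2 1.42.0, a block by replicate number and each library left out. The script was tested on simulated data.

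The comparison, the 36 gene lists and the alternatives were chosen with earlier results of these data known, so lists are described by counts and medians, with no test. Named genes are those past the threshold, filled up to 10 per direction by p, among genes of at least 5 CPM in the higher group that are not predicted models, the sorting markers, Notch, macrophage, granulocyte-monocyte and transcription factor lists, and the 3 smallest p of each other list. Further platelet-lineage genes, Iqgap2, Sept5 and Cacna2d3 were chosen after their values were seen, as were the block across populations, the AGATAA motif and the list medians under the alternatives. Some genes that this rule names are not reported here.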

Additional observations from a re-analysis of the deposited data

Results flagged for a closer look

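Differences of the antibody effect between populations passed edgeR's quasi-likelihood test for 3 genes. The effect in Kit+ CD45+ cells minus that in Kit+ CD45- cells was 3.45 on the log2 scale for F2rl2 and 6.65 for Gp6. The effect in Kit+ CD45+ cells minus that in Kit- CD41+ CD45- cells was -7.18 for Cacna2d3, on counts near the floor.

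A library lay far from the other 3 of its group in 10 of 192 groups of 4 checked. The cut-off flags about 1 in 20 among independent normal values. Most values here were CPM of genes, some chosen after their values were seen, so the chance rate for them is not known. Under anti-Dll4, replicate 1 was apart for Ms4a3 (28.1 CPM), replicate 2 for Notch3 (3.72 CPM) and Cd14 (463 CPM), and replicate 3 for Jag1 (1.46 CPM). Under IgG, replicate 1 was apart for F2rl2 (1.397 CPM, with 7.11 to 8.22 CPM in the others), Hey1 (29.2 CPM), Top2a (265 CPM) and the erythroid list (1.83 as mean log2(CPM + 1), with 2.55 to 2.65 in the others). Under IgG, replicate 2 was apart for Tubb1 (1.36 CPM) and replicate 3 for Gp6 (0.305 CPM), each against 0 in the others, where any count is flagged.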

How the results depend on the processing

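The count of 1 gene called between anti-Dll4 and IgG in Kit+ CD45+ cells was the same with DESeq2 size factors, upper-quartile scaling and the replicate block. It was 0 with no filter and 0 with only the 8 libraries (1227 and 294 genes at an unadjusted p under 0.05, edgeR), 14 with DESeq2, and 0 to 1 leaving out a library. The log2 fold change of F2rl2 stayed between 2.17 and 2.73 over 14 alternatives. The count of 2 for the difference from Kit+ CD45- cells became 0 with no filter, 0 with only the 16 libraries (1711 and 626 at an unadjusted p under 0.05), 4 with the replicate block, 1 with a replicate block across populations, 32 with DESeq2, and 1 to 5 leaving out a library. The count of 1 for the difference from Kit- CD41+ CD45- cells became 0 with only the 16 libraries (577 at an unadjusted p under 0.05), 0 with the replicate block (403), 0 with the block across populations (494), 4 with DESeq2, and 0 to 1 leaving out a library. Whether replicate numbers pair the anti-Dll4 and IgG libraries is not stated. Deviations of same-numbered libraries of Kit+ CD45+ cells correlated at -0.179, 0.139, -0.206 and -0.223, and those of different number at -0.11 to 0.175. So few values cannot settle whether the libraries were paired. Kit+ CD45+ and Kit+ CD45- libraries of the same antibody and number correlated at 0.279, 0.115, 0.184 and -0.12 under anti-Dll4 and at 0.112, 0.0278, 0.0733 and 0.06 under IgG. Genes without overlap numbered 281, and 287 to 408 under other scalings and no filter. The platelet median ran from 0.76 to 1.04 leaving out a library, and the macrophage median from -0.64 without IgG replicate 1 to 0.01 without IgG replicate 4. The causes were not tested.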
